A study of Mus musculus with 2 samples.

Results

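Spp1-high Cthrc1 fibroblasts were 186 of the 4473 barcodes in the bleomycin library, and of 9928 barcodes in the series. A barcode was counted among them when it had at least 500 genes, at most 10% mitochondrial UMIs (unique molecular identifiers, each standing for 1 captured transcript), and at least 20 UMIs per 10000 from Col1a1, Col1a2, Col3a1, Dcn and Pdgfra together. It also had to have no UMI of Ptprc, Pecam1 or Epcam, at least 2 UMIs of Cthrc1, at least 30 UMIs of Spp1 per 10000, no Msln, and fewer than 4 UMIs from the cell cycle genes Mki67, Top2a, Cdk1, Ube2c and Birc5. The levels of these genes chose the cells, so they are given as a description and support nothing. The same filters without the Spp1 minimum gave 745 further cells of the same library, called Spp1-low Cthrc1 fibroblasts, which were the main comparison. Every difference between those classes comes from the split by Spp1 that defined them, so it is described by its size and its counting error and carries no test.

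Lungs came from Lepr-Cre;Rosa26-tdtomato mice aged 8 to 10 weeks given saline or else bleomycin, which breaks DNA and is a standard means of scarring rodent lungs. Lepr, the leptin receptor gene, drives the Cre recombinase, which switches on tdTomato permanently, so both groups carry the reporter and a sorted cell need not have been expressing Lepr when it was taken. Live tdTomato-positive cells of each group were captured in droplets as 1 library. How many mice went into each library, how much bleomycin they had and when lungs were taken is not stated in the labels. With 1 library a group there is no replicate error. All intervals are exact 95% intervals that cover counting error only, and the treatment, the library and the animals cannot be told apart.

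The saline library held 37570380 UMIs in 5455 barcodes (median 6353) and the bleomycin library 61537182 in 4473 (median 12389). The libraries shared 33 barcode sequences, of which 3 belonged to Spp1-high cells. The Spp1-high cells held 3064355 UMIs with a median of 15387 UMIs and 3526 genes per cell, against 15266 UMIs and 3530 genes in Spp1-low cells. Their median mitochondrial shares were 1.90% and 1.95%. The classes thus had nearly the same depth, which was not so for saline fibroblasts (median 6776 UMIs).

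Spp1 encodes osteopontin, a secreted, acidic phosphoprotein of bone, kidney and inflamed tissue that binds integrins and CD44 and is best known in fibrotic lung as a macrophage product. Cthrc1 encodes a secreted glycoprotein with a short collagen repeat, and marks the matrix-producing fibroblasts that appear in injured lung. Fibroblasts of this kind lose the genes of resting alveolar fibroblasts and gain collagens, matricellular proteins and part of the contractile machinery.

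Spp1 lies at chr5:104435118-104441050 on the plus strand of mm10, and Serpine2, the gene that stood out beside it in the comparison below, at chr1:79794197-79861180 on the minus strand. The 250 bases before the RefSeq start of each gene (GRCm38.p6) are printed because these 2 transcripts were high in the same cells. The Spp1 stretch is chr5:104434861-104435110 on the plus strand, before the first listed of 2 starts, and the Serpine2 stretch is chr1:79858666-79858915 on the minus strand. The Serpine2 stretch lies inside the gene span given above, which is from GENCODE and begins further upstream than the RefSeq start. Capitals in Spp1 mark the letters TGTGGT (the core of RUNX motifs) and AGGAAG (an ETS core) on either strand, and capitals in Serpine2 mark GGGCGG (the GC box) and AGGAAG, some of which overlap.
Spp1: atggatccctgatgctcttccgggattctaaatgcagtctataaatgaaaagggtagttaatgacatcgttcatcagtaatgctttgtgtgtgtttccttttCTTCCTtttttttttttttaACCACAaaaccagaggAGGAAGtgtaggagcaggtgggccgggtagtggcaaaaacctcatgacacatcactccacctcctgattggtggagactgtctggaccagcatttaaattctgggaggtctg
Serpine2: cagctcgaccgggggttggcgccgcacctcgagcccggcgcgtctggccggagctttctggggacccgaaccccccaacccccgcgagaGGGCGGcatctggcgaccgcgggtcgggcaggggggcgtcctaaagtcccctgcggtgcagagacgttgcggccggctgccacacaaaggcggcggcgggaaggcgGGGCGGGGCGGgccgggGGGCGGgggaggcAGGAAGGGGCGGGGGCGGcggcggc
The Spp1 stretch held 1 RUNX core and 2 ETS cores and no match to the AP-1 motif TGANTCA or to GGGCGG. The Serpine2 stretch held 6 GC boxes and 1 ETS core, and no RUNX core or AP-1 motif. Among 32851 RefSeq promoter stretches of 250 bases, 14.0% held the RUNX core, 29.5% the ETS core, 6.75% the AP-1 motif and 32.7% the GC box. These letters are a description, and nothing follows from them about binding.

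Osteopontin transcripts ranged widely among the 186 cells. The lowest cell had 30.2 Spp1 UMIs per 10000, the median cell 99.8 and the highest 1866, which was 18.7% of all UMIs in that cell. In counts this was 18 to 3885 Spp1 UMIs per cell with a median of 169. The 10 cells with the most Spp1 held 32.6% of the 82719 Spp1 UMIs of the class, and the upper 93 cells held 90.6%. Cthrc1, by contrast, stood at a median of 7 UMIs in both classes, from 2 to 69 in Spp1-high cells and up to 242 in Spp1-low cells. Summed over cells, Cthrc1 was at 611 UMIs per 1000000 UMIs of the class (UPM) in Spp1-high cells (584 to 639) and 1069 in Spp1-low cells (1051 to 1088). The summed level was thus lower in the Spp1-high class, while the median count per cell was the same. Cthrc1 is a gene of the selection rule, so this is a description.

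Most Spp1-low Cthrc1 fibroblasts were close to the level of free RNA. Their median was 2.22 Spp1 UMIs per 10000, and endothelial barcodes of the same library, which should lack the gene, had a median of 1.53. After each cell was thinned to 5000 UMIs, 67.4% of Spp1-low cells had a Spp1 UMI against 56.7% of endothelial barcodes (93.4% and 80.8% without thinning, at median depths of 15266 and 8115 UMIs). No endothelial barcode of 151 reached 30 per 10000 (exact interval 0 to 2.41%), and the highest had 10.7. Macrophage barcodes lay between, with a median of 15.4 per 10000, and 79 of 311 (25.4%, interval 20.7 to 30.6) passed 30. In saline fibroblasts Spp1 was at 9.48 UPM and 0.857% of thinned cells had a UMI.

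**Figure D1:**
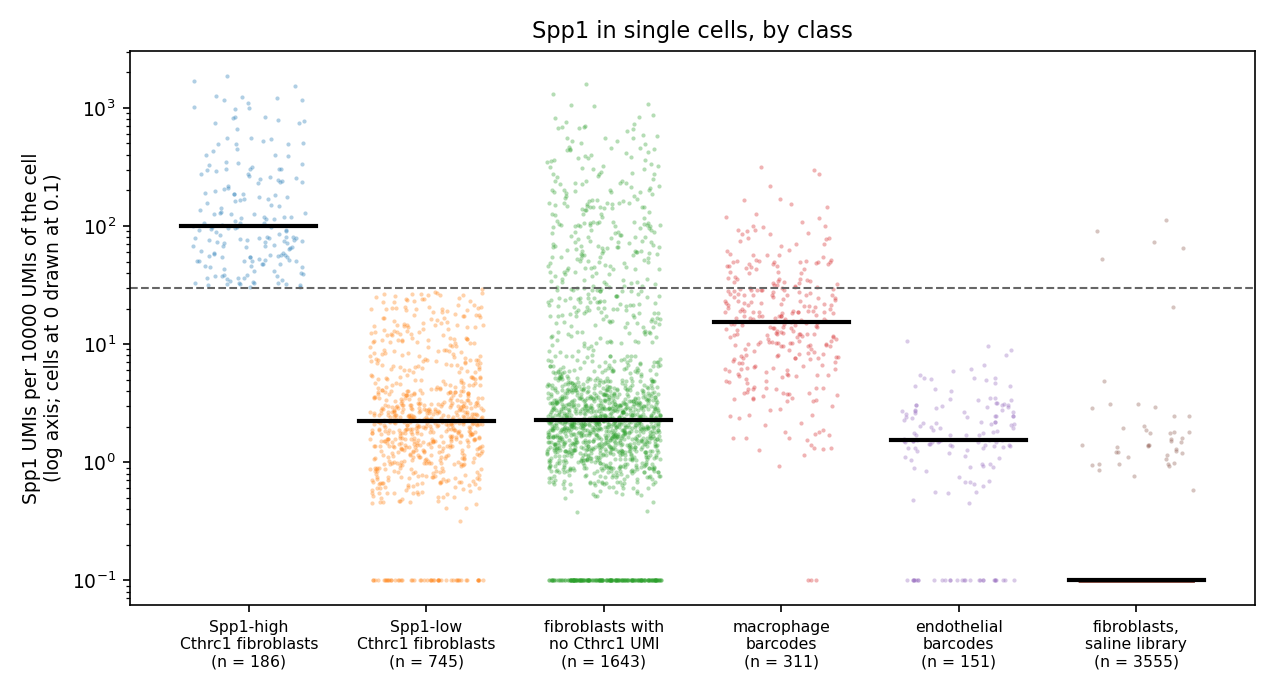
Spp1 UMIs per 10000 UMIs of each cell (vertical log axis, cells without a UMI drawn at 0.1) in 6 classes; each point is a cell, the bars are medians and the dashed line is the minimum of 30 that chose the Spp1-high cells. No endothelial barcode reaches the line, while the Spp1-high cells reach 1866.

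The share of Spp1-high cells did not follow the amount of Cthrc1. Among bleomycin fibroblasts without Msln and with few cell cycle UMIs, 234 of 1643 cells with no Cthrc1 UMI passed 30 Spp1 UMIs per 10000 (14.2%, 12.6 to 16). The share was 21.7% with 1 Cthrc1 UMI, 20.2% with 2 to 4, 26.4% with 5 to 9, and 16% with 10 or more (12.5 to 20.1). Cells with the most Cthrc1 thus had a lower share than those with 5 to 9 UMIs. In the saline library 5 of 3555 such fibroblasts passed (0.141%, 0.0457 to 0.328), and 1 barcode met the whole rule. The Spp1-high cells with at least 2 Cthrc1 UMIs made up 5.22% of bleomycin fibroblasts (4.52 to 6.01) and 15% of those with at least 2 Cthrc1 UMIs (13 to 17.1).

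Of the 3 markers that name these cells beside Spp1 and Cthrc1, Timp1 was higher, Thbs4 was high in few cells and Fmod was not higher. Timp1, an inhibitor of matrix metalloproteinases (chrX:20870166-20874735, plus strand), was at 1970 UPM in Spp1-high and 1199 in Spp1-low cells, 1.64-fold (1.59 to 1.69), and at 222 in saline fibroblasts. It was found in 96.8% of Spp1-high and 98.0% of Spp1-low cells, so it was common to both classes. Thbs4, a thrombospondin of tendon and muscle attachments (chr13:92751590-92794818, minus strand), was at 142 and 86.1 UPM, and 47 of the 186 cells had a UMI (25.3%, against 11.7% of Spp1-low cells). Of its UMIs, 50.5% lay in 5 cells. Without its highest cell, Thbs4 was 1.40-fold higher, and with cells carrying a UMI of the adventitial genes Pi16, Dpp4, Ly6c1 or Clec3b left out of both classes its log2 ratio was -0.36. Fmod, which encodes fibromodulin, a proteoglycan that binds collagen fibrils (chr1:134037254-134048277, plus strand), was at 211 and 237 UPM, both well above the 26.7 of saline fibroblasts. Of the 47 cells with Thbs4, 39 also had Fmod. Fmod thus did not set the Spp1-high cells apart from Spp1-low cells, and Thbs4 was present in a minority of both.

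Against Spp1-low Cthrc1 fibroblasts, the Spp1-high cells had more transcripts of Serpine2, Lpl, Tnnt2, Cxcl14 and Mgp, and fewer of Igfbp6, Ly6a, Clec3b and other adventitial genes. A gene was called when it had at least 50 UMIs and 20 UPM in the higher class and a ratio of at least 1.5. Of 5276 genes at that level, 171 were higher (3.24%) and 189 lower (3.58%), and 49 (0.929%) and 73 (1.38%) passed 2-fold. The median log2 ratio of all these genes was -0.01. When each cell was thinned to 5000 UMIs before summing, 98 were higher and 331 lower, of which 67 and 149 were also called without thinning. Thinning left fewer UMIs in the smaller Spp1-high class, so 50 UMIs there stood for a higher UPM than in Spp1-low cells. Higher and lower genes were thus not called at like levels after thinning.

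**Figure D2:**
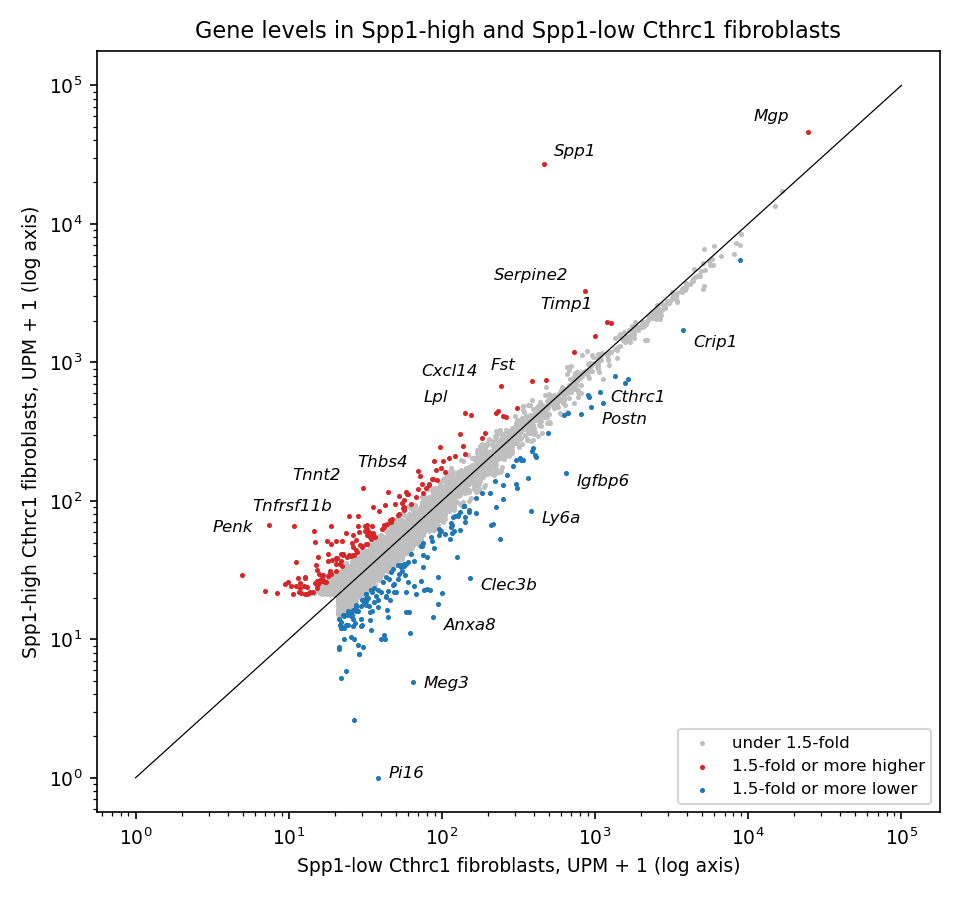
Level of each gene at or above the level minimum in Spp1-low (horizontal) and Spp1-high (vertical) Cthrc1 fibroblasts, in UPM plus 1 on log axes; red and blue points differ by at least 1.5-fold and the line marks equal levels. Serpine2 and Mgp lie above the line among abundant transcripts, and Igfbp6, Ly6a and Clec3b below it.

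Serpine2 was the most abundant of the 20 highest genes. It encodes protease nexin-1, a secreted serpin that inhibits thrombin, urokinase and plasmin. The 186 cells had 0.761 to 155 Serpine2 UMIs per 10000 with a median of 18.5, and the Spp1-low cells had 0 to 110 with a median of 3.55, so the classes overlapped. The sums were 3286 UPM (3223 to 3351) and 862 (846 to 879), a 3.81-fold difference (3.71 to 3.92). Every Spp1-high cell had a Serpine2 UMI, and its 5 highest cells held 15.5% of the total, so the difference was spread over the class. Of 28 measured genes for matrix proteases and their inhibitors, 21 reached the level minimum, and 3 were higher and 2 lower. Measured means at least 20 UMIs in the 2 classes together, as for every list below. Only genes at the level minimum could be called, and over all such genes 3.24% were higher and 3.58% lower. Besides Serpine2 and Timp1, Plat, the tissue plasminogen activator, was higher at 140 against 91.2 UPM. Adam12 and Mmp3 were lower.

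Several secreted regulators were high in part of the cells. Tnfrsf11b encodes osteoprotegerin, the decoy receptor for RANKL (chr15:54250619-54278484, minus strand), and was at 65.3 UPM (56.5 to 75) against 9.86 (8.17 to 11.8). Its UMIs lay in 48 Spp1-high cells (25.8%) and 56 Spp1-low cells (7.52%), and 5 cells held 48.0% of them. Penk, which encodes the opioid precursor proenkephalin, was at 65.6 against 6.46 UPM, the highest ratio of all called genes apart from Spp1. However, 1 of the 26 cells with Penk held 54.7% of its UMIs, and the fold was 4.14 without it. Chodl, a membrane lectin gene, was as concentrated, with 84.9% of its UMIs in 5 cells. Cxcl9 was at 64.3 against 18 UPM with 61.9% in 1 cell, and was 1.35-fold higher without that cell. These 4 transcripts were thus high in a minority of the Spp1-high cells.

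Further genes of the highest 20 had smaller shares of their UMIs in 5 cells than those 4, though some were also found in a minority of cells. Tnnt2, cardiac troponin T, was at 123 against 29.4 UPM and was found in 75 cells (40.3%, against 14.4% of Spp1-low cells). Lpl, lipoprotein lipase, was at 430 against 141 UPM, 3.05-fold (2.84 to 3.28), and in 83.3% against 51.7% of cells. Cxcl14, an orphan chemokine of epithelium and stroma, was at 671 against 241 UPM. Lgals7, Ass1, Ucp2, Hp, Slc40a1 and Slco2a1, which encode galectin-7, argininosuccinate synthase, a mitochondrial uncoupling protein, haptoglobin, the iron exporter ferroportin and a prostaglandin transporter, were 2.69-fold to 3.56-fold higher. Of the Hp UMIs, 41.4% lay in 5 cells. Plvap, the diaphragm protein of endothelial fenestrae, was at 59.4 against 13.7 UPM. Endothelial barcodes had 985 UPM of Plvap. The 5 other endothelial markers listed summed to 4.57 and 5.47 UPM in the 2 classes and to 3868 in endothelial barcodes, and 172 of the 186 cells had none of them. Cells with Pecam1 had been left out by the rule. The transcription factor genes among the 20 were Tfap2a, Bcl11a and Etv4, each at 20.6 to 24.1 UPM against at most 8.45. They were found in 38, 48 and 46 of the 186 cells. Ramp1, a receptor accessory protein, was at 25.1 against 8.95 UPM. It was found in 39 of the 186 cells, and 5 cells held 41.6% of its UMIs.

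The most abundant transcript with a call was Mgp, matrix Gla protein, an inhibitor of calcification. It was at 46435 UPM in Spp1-high cells and 24429 in Spp1-low cells, 1.90-fold (1.89 to 1.91), with per-cell medians of 355 and 193 per 10000. It was the only called gene of 9 measured genes of bone and cartilage differentiation, of which 4 reached the level minimum. Bglap, the osteocalcin gene, had no UMI in either class. Ibsp, bone sialoprotein, had none in Spp1-high and 7 in Spp1-low cells. For a count of 0 in the Spp1-high class the limit was set at 3 counts, which is 0.979 UPM.

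The receptors of osteopontin differed little. Of 9 measured receptor and partner genes, 6 reached the level minimum. Itgb5 was higher at 282 against 182 UPM (1.55-fold, 1.43 to 1.68) and Itga5 lower at 90.1 against 138 (1.54-fold, 1.35 to 1.75). The alpha-V subunit Itgav was at 47.3 and 42.4 UPM, Itgb1 at 407 and 421, and the hyaluronan receptor Cd44 at 134 and 162, none of which reached 1.5-fold. Itgb3, the partner of alpha-V in the classical osteopontin receptor, had 9 UMIs in all Spp1-high cells (2.94 UPM). The receptor transcripts in these cells were thus mostly Itgb1, Itgb5 and Cd44, and Itgb5 alone was higher.

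Several secreted antagonists and ligands were higher. Of 21 measured Wnt pathway genes, 13 of which reached the level minimum, 6 were higher and 1 lower. The 6 were the antagonists Frzb (35.2 against 10.1 UPM), Sfrp1 (399 against 261), Sfrp2 (40.1 against 21.1) and Dkk2 (22.8 against 12.2), the receptor Fzd1 (249 against 136) and the ligand Wnt10a. Sfrp1 was 1.43-fold higher without its highest cell. Of 22 measured TGF-beta genes, 18 reached the level minimum. Tgfb1 was higher at 167 against 90.4 UPM, as was the activin subunit Inhba (95.6 against 54.2). The activin antagonist Fst, follistatin, was also higher (737 against 387, 1.90-fold, 1.81 to 2.00). Tgfb2 and the co-receptor Tgfbr3 were lower. Of 19 measured genes of the BMP pathway, 10 reached the level minimum. Bmp4 was the 1 gene called among them, at 39.5 against 23.7 UPM.

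None of the fibrillar collagen, crosslinking or small proteoglycan genes measured was called higher. Over all genes at the level minimum only 3.24% were, so none among so few genes is close to that share. Of 6 measured fibrillar collagen genes outside the selection rule, 5 reached the level minimum. Col5a1, Col5a3 and Col11a1 were lower and none higher, and the 6 had a median log2 ratio of -0.41. Col11a1 was at 20.9 against 57.1 UPM. The rule's own collagens were at 7018 against 8856 UPM for Col1a1 and 3374 against 5037 for Col3a1. Of 22 measured genes for collagen crosslinking and processing, 21 reached the level minimum, and 4 were lower and none higher. Among the 4 were the lysyl oxidases Loxl2 (123 against 308 UPM) and Lox (431 against 662). The small leucine-rich proteoglycan gene Aspn, asporin, was at 88.8 against 223 UPM.

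Matricellular proteins, which sit in matrix without building it, went both ways. Of 20 measured genes 19 reached the level minimum, and 4 were higher and 7 lower. Postn, periostin, was at 474 UPM in Spp1-high and 943 in Spp1-low cells, 1.99-fold lower (1.88 to 2.1). Spon2, Wisp2, Smoc2, Tnn, Thbs2 and Thbs3 were also lower. Thbs1 (1542 against 993 UPM), Sparcl1 (1181 against 730), Spon1 (310 against 191) and Thbs4 were higher. Without its highest cell, Thbs4 was 1.40-fold higher, under the 1.5-fold minimum for a call. Within the fibrotic fibroblast list 12 of 15 measured genes reached the level minimum, and 2 were higher and 5 lower. Among the lower were Postn, Ptn (214 against 402 UPM), Aspn, Adam12 and Ddah1. The 2 higher genes of that list were Inhba and Sfrp1.

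Contractile genes of myofibroblasts were close in both classes. Their summed level had a per-cell median of 72.0 per 10000 in Spp1-high and 72.3 in Spp1-low cells. Of 19 measured genes 17 reached the level minimum, and 2 were lower, Myl9 and Cnn1. Acta2, smooth muscle actin, was at 1454 against 2180 UPM, just short of the size rule (1.45-fold to 1.55-fold lower). Cnn1 had 44.0% of its 25 UMIs in 1 cell.

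The largest lower group was the adventitial genes, which mark fibroblasts of vessel and airway sheaths. Of 13 measured, 11 reached the level minimum, and 8 were lower and none higher. The list's median log2 ratio was -1.98. Pi16, a protease inhibitor of universal fibroblasts, had 0 UMIs in the 186 cells and 37.3 UPM in Spp1-low cells (at least 38.1-fold lower against 3 counts in the class). Clec3b, tetranectin, was at 26.8 against 150 UPM, and the surface antigen genes Ly6a and Ly6c1 at 83.9 against 381 and 17.0 against 92.9. Igfbp6 was at 158 UPM (144 to 172) against 647 (633 to 662), 4.11-fold lower (3.75 to 4.51). Cells with a UMI of Pi16, Dpp4, Ly6c1 or Clec3b were more common among Spp1-low cells: without them 136 Spp1-high and 351 Spp1-low cells were left. In those cells the log2 ratio was -1.04 for Igfbp6 and -0.81 for Ly6a, in place of -2.03 and -2.17, and that of Serpine2 was 1.49 in place of 1.93. The list's median was then 0, in part by construction, since genes that chose the cells are in it. The share of marked cells thus moves with the difference, and its part in each gene was not tested.

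Of 12 measured genes of the insulin-like growth factor system 11 reached the level minimum, and 5 were lower and 1 higher. The list's summed level was 8195 UPM in Spp1-high and 7658 in Spp1-low cells. Igfbp3 was at 51.9 against 238 UPM (4.58-fold lower, 3.91 to 5.41) and Igfbp5 at 22.2 against 78.5. Igfbp2 was higher at 92.4 against 41.3 UPM, but it was found in 25 of 186 cells and 5 cells held 55.8% of it. Meg3, an imprinted long noncoding RNA, was at 3.92 against 64.2 UPM (16.4-fold lower, 9.33 to 31.9). Its 12 UMIs in Spp1-high cells came from 2 cells. Of 13 measured S100 and annexin genes 4 were lower, S100a6, S100a10, Anxa2 and Anxa8, and none higher. Crip1, a LIM domain gene, was at 1716 against 3748 UPM.

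Of 10 measured antigen presentation genes, 4 reached the level minimum and 3 were higher. The 3 were H2-K1 (202 against 110 UPM), H2-D1 (409 against 249) and B2m (1912 against 1264). B2m was 1.47-fold higher without its highest cell. Of 25 measured endoplasmic reticulum and secretory genes, 24 reached the level minimum. Hspa5 and Dnajb9 were higher, both under 1.5-fold without their highest cell. None of 24 respiratory chain genes was called. Of 23 measured immediate early genes, 21 reached the level minimum, and Atf3 and Btg2 were higher and Klf4 lower.

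Markers of other cell types stayed low, apart from those of smooth muscle. The 17 macrophage markers summed to 128 UPM in Spp1-high and 118 in Spp1-low cells, against 63758 in macrophage barcodes. Of the 12 measured, only 2 reached the level minimum for a call, and neither was called. The pan-macrophage gene Lyz2 was at 59.1 and 60.5 UPM and Cd68 had 3 UMIs in all Spp1-high cells. Only 6 of the 186 cells had over 5 macrophage marker UMIs. Without these cells and 22 Spp1-low cells treated alike, 170 genes were higher and 189 lower. Lymphocyte markers had no UMI in Spp1-high cells. Epithelial, neutrophil, mesothelial and Schwann markers summed to at most 33.3 UPM per list, and pericyte markers to 28.7 against 18.6. The smooth muscle markers Myh11, Cnn1, Actg2 and Des summed to 663 UPM in Spp1-high, 792 in Spp1-low and 180 in saline fibroblasts. Only 24 of the 186 cells had none of them, and Des alone was found in 84.9% of the 186.

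Across bands of Spp1, Serpine2 and Lpl varied by degrees with no upward step at the threshold, while Igfbp6 was lower just inside it than just outside. Serpine2 was at 657 UPM in the 479 Cthrc1 fibroblasts with under 3 Spp1 UMIs per 10000, at 1016 from 3 to 10, at 1458 from 10 to 20 and at 1663 from 20 to 30. It was at 1530 from 30 to 40, 2469 from 40 to 60, 2647 from 60 to 120 and 4369 in the 81 cells above 120. The 29 cells just outside the threshold thus had as much Serpine2 as the 25 just inside it. Tnfrsf11b was low up to 120 (5.77 to 27.8 UPM) and reached 113 UPM above it. Igfbp6 was at 782 UPM in the lowest band, 308 just outside, 165 just inside and 135 in the highest. Timp1 was at 1891 UPM just outside and 1009 just inside, so it did not follow Spp1 through the threshold. Postn was at 1035 UPM in the lowest band and 431 in the highest. Cthrc1 was at 1121 and 1229 UPM in the lowest bands and between 556 and 839 in all others.

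**Figure D3:**
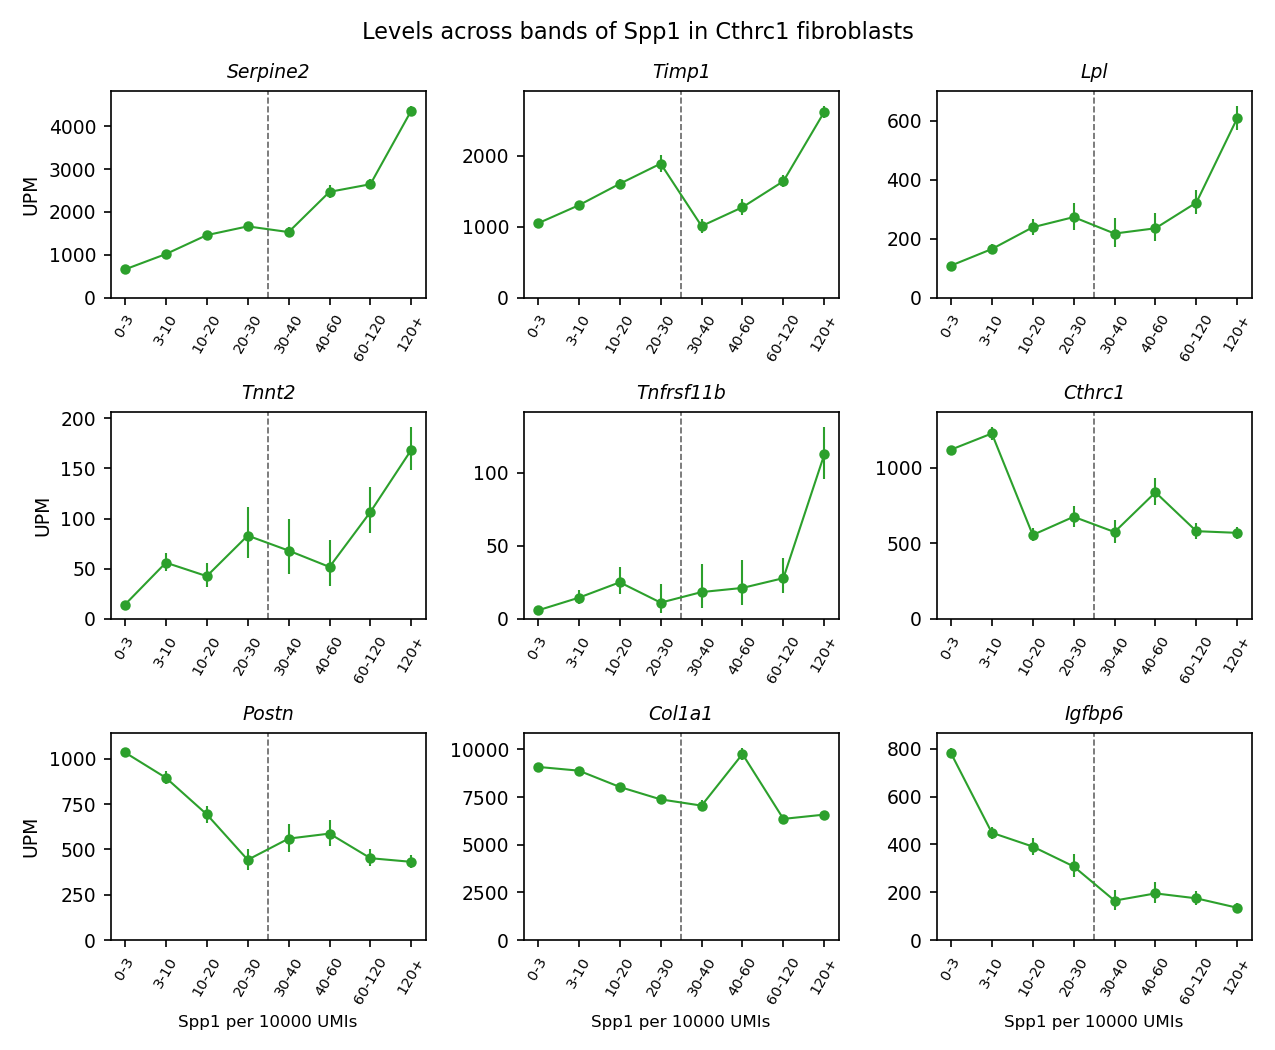
Levels of 9 genes in UPM (vertical axes, from 0) in Cthrc1 fibroblasts grouped by Spp1 UMIs per 10000 (horizontal axes); bars are exact 95% Poisson intervals and the dashed line is the minimum of 30. Serpine2 climbs from 657 to 4369 across the bands while Igfbp6 goes from 782 to 135.

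The same split by Spp1 was made in fibroblasts that were not used by the rule, those of the bleomycin library with no Cthrc1 UMI. They share the library and its free RNA with the cells above, but no cell. The 234 Spp1-high and 1409 Spp1-low cells of this kind gave 135 of 5558 genes higher (2.43%) and 219 lower (3.94%). Of the 171 genes higher in Spp1-high Cthrc1 fibroblasts, 157 reached the level minimum there and 76 were also higher, which is 48.4% of those measured and 56.3% of the 135. Of the 189 lower genes, 151 reached the minimum and 68 were also lower (45.0% of them, and 31.1% of the 219). In the opposite direction 2 and 0 were called.

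Of the 20 highest genes 14 were also higher in cells without Cthrc1, and of the 20 lowest 13 were also lower. Serpine2 was at 2253 against 794 UPM, 2.84-fold (2.75 to 2.92), and Tnfrsf11b at 36.4 against 2.05, 17.7-fold (12.0 to 26.9). Lgals7 was at 55.8 against 3.62 UPM, 15.4-fold (11.4 to 21.0), a wider gap than the 3.56-fold in Cthrc1 fibroblasts (2.84 to 4.46). Fmod was at 122 against 50.8 UPM and Thbs4 at 21.9 against 3.38, so both label markers were higher in Spp1-high cells without Cthrc1, unlike Fmod in those with it. Fst was 3.52-fold higher (3.33 to 3.72) and Lpl 2.46-fold (2.32 to 2.61).

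Other differences did not carry over. Postn was 1.44-fold higher in Spp1-high cells without Cthrc1 (137 against 94.8 UPM), below the size rule, while it was 1.99-fold lower in those with Cthrc1. Col1a1 was at 3298 against 3044 UPM. Cxcl14 and Hp were at 974 against 880 and 927 against 741 UPM, both under 1.5-fold. Mgp was 1.44-fold higher (40940 against 28517 UPM), also below the size rule. Meg3 was at 27.1 against 36.6. Cxcl9 was at 6.45 against 13.9 UPM. Clec3b, Ly6a, Igfbp6, Igfbp3 and Anxa8 were lower in both sets.

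**Figure D4:**
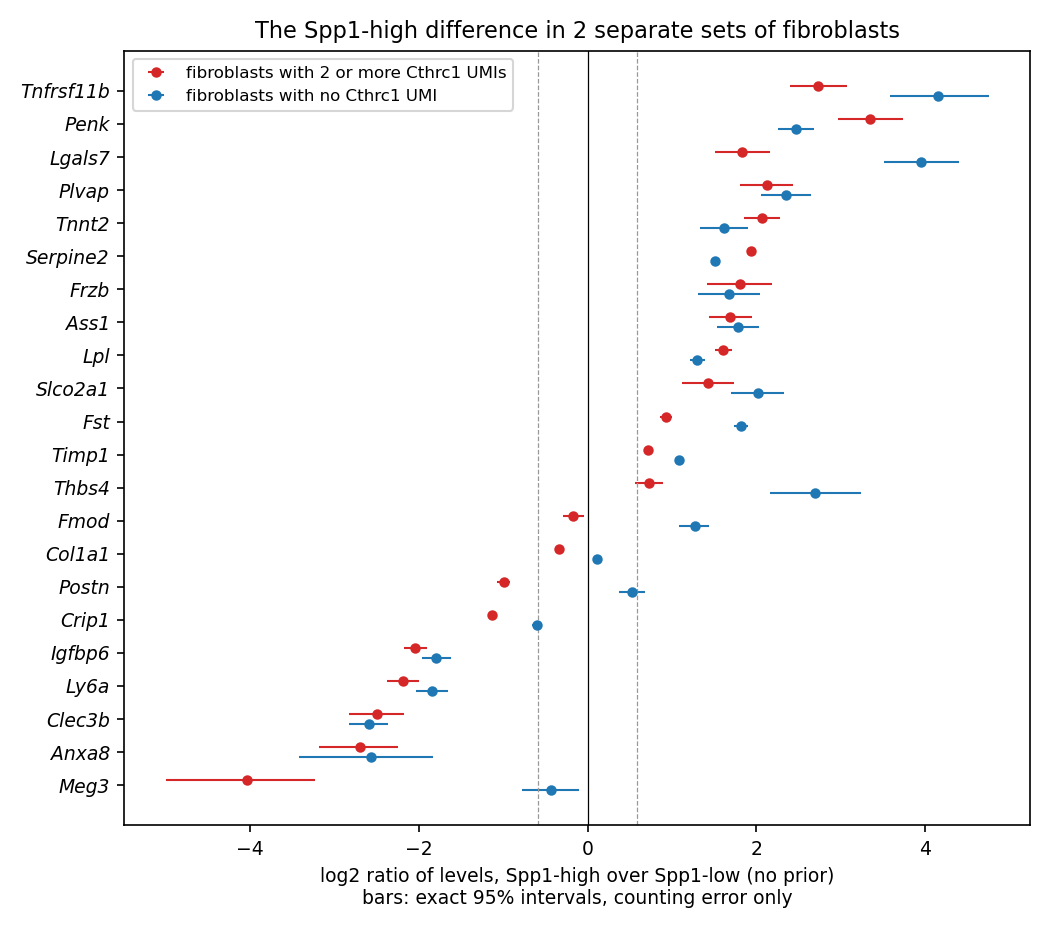
Log2 ratio of levels, Spp1-high over Spp1-low (horizontal axis), for 22 genes in fibroblasts with 2 or more Cthrc1 UMIs (red) and with no Cthrc1 UMI (blue); bars are exact 95% intervals for counting error and dashed lines mark 1.5-fold. Serpine2 lies to the right and Clec3b to the left in both sets, while Postn lies on opposite sides.

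The 186 cells varied among themselves along axes that followed Spp1 weakly or only in part. The first 3 principal components of 1000 variable genes, leaving out the genes of the rule, held 8.99%, 6.85% and 4.15% of the variance. Over the 186 cells, which share a library, the first had a Pearson r of -0.16 with log Spp1 and -0.21 with UMIs per cell, the second -0.09 and 0.17, and the third 0.38 and -0.03. These are descriptions.

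At one end of the first component were Serpine2, Timp1, Timp3, Fst, Thbs1, Angptl4, Tagln and Igf1, and at the other the metallothioneins Mt1 and Mt2 with Cdo1, Fmo2, Cst3, Gpx3, Lgals3 and Eln. The 62 cells at the first end had 4600 UPM of Serpine2 and 3455 of Timp1, and the 62 at the other end had 1026 and 642. Mt1 was at 773 UPM in the first and 5469 in the second. Spp1-high cells thus ranged from an end with more Serpine2 and Timp1 to an end with more Mt1 and Mt2. Protease inhibitor genes lay at both ends. Cst3 and Serpina3n, which also encode protease inhibitors, went with the metallothioneins, Cst3 at 8226 against 2017 UPM and Serpina3n at 806 against 93.8. Elastin transcripts (Eln) were at 4578 and 10878 UPM at these ends.

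The second component separated cells rich in S100a4, Crip1, Acta2, Des and Vim from cells rich in Junb, Jun, Cyr61, Mfap4, Igfbp4 and Apoe. The 62 cells at its ends had 835 and 194 UPM of Des, the desmin gene, and 199 and 987 UPM of Igfbp4. The third set Fos, Jun, Junb, Nr4a1 and Postn against Acta2, Tagln, Myl9 and Tpm1, with Acta2 at 675 and 2303 UPM and Fos at 1890 and 574. The cells at each end were chosen by scores built from these genes, so the gaps are a description of the components.

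**Figure D5:**
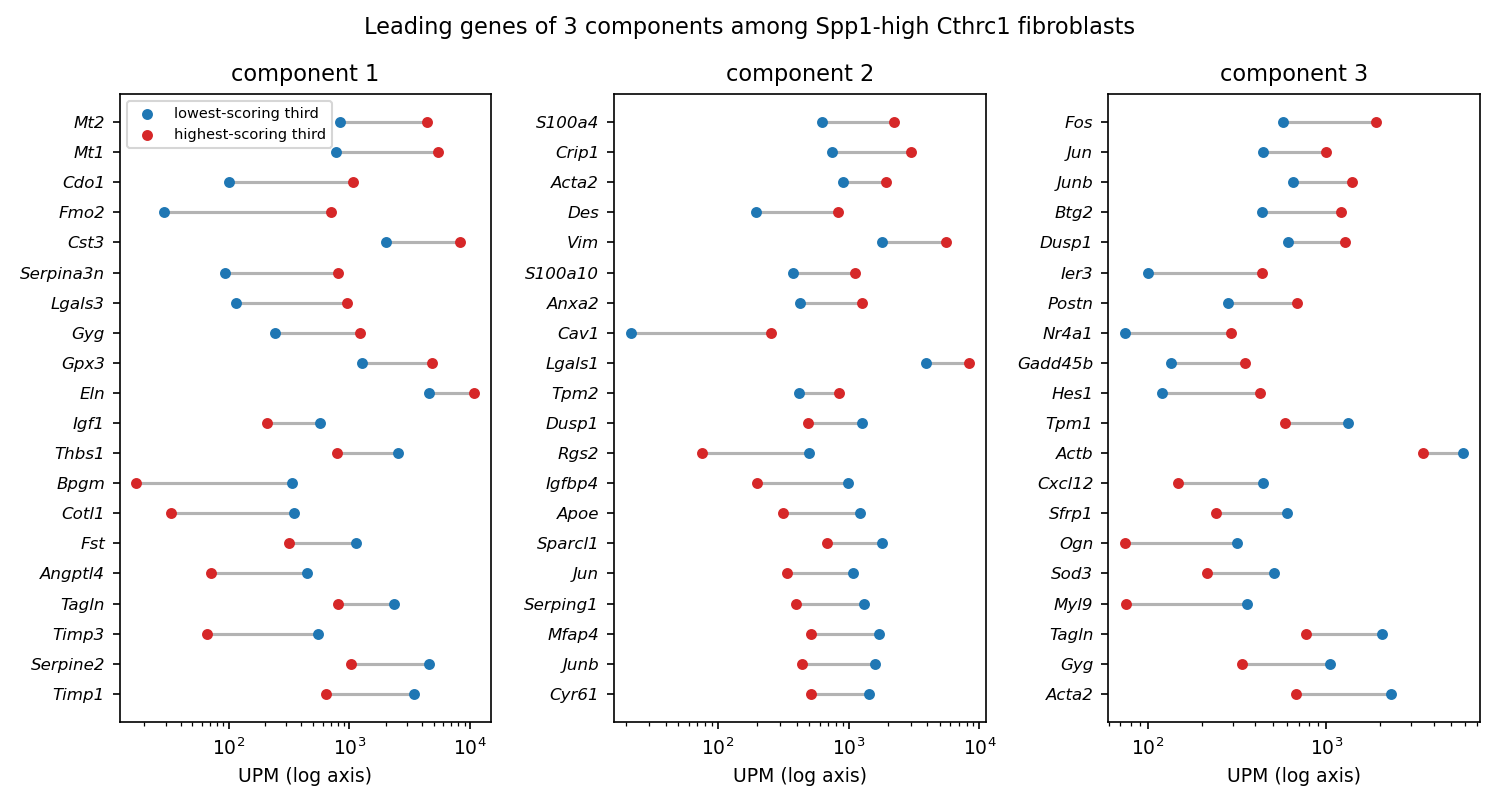
Levels of the 10 leading genes at each end of 3 principal components among the 186 Spp1-high Cthrc1 fibroblasts, in UPM on log axes; blue and red points are the 62 lowest-scoring and 62 highest-scoring cells. Serpine2 and Timp1 are highest where Mt1 and Mt2 are lowest.

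Against 3555 saline fibroblasts, chosen by the same filters apart from Cthrc1 and Spp1, the Spp1-high cells had 367 of 5881 genes at least 2-fold higher (6.24%) and 755 at least 2-fold lower (12.8%), and a median log2 ratio of -0.06. With cells thinned to 5000 UMIs the counts were 201 and 772, again called at unlike levels. Spp1-low cells are given beside them and share the saline cells. Fst was at 737 UPM, 99.6-fold above the 7.40 of saline fibroblasts (85.8 to 116), and 387 in Spp1-low cells. Grem1, gremlin, a BMP antagonist, was at 106, 1.06 and 81.4 UPM in Spp1-high, saline and Spp1-low cells. S100a4 was at 1445, 16.6 and 2124 UPM and Ptn, pleiotrophin, at 214, 2.68 and 402. Both Cthrc1 classes were thus far above saline fibroblasts for these genes.

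For a few genes the Spp1-high cells stood further from saline than the Spp1-low cells did. Serpine2 was at 3286 UPM against 536 in saline fibroblasts, 6.14-fold (5.98 to 6.30), and Spp1-low cells stood 1.61-fold above saline. Lpl was 4.46-fold above saline (4.17 to 4.78) and 1.46-fold in Spp1-low cells. Tnnt2 was at 123, 1.57 and 29.4 UPM and Tnfrsf11b at 65.3, 0.433 and 9.86. For Col1a1 the order was the other way, with 4.80-fold in Spp1-high and 6.05-fold in Spp1-low cells.

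Genes of resting alveolar fibroblasts were low in Spp1-high cells. Of 14 measured, 13 were at least 2-fold lower than in saline fibroblasts, with a median log2 ratio of -2.73. Inmt, an N-methyltransferase gene, was at 99.5 against 4788 UPM, and 76.1% of its UMIs came from 5 of the 186 cells. Npnt, nephronectin, was at 123 against 930 UPM and the transcription factor gene Tcf21 at 34.9 against 326. Pdgfra, a gene of the selection rule that is not counted among the 14, was at 163 against 461. Lepr had 8 UMIs in the 186 cells, 2.61 UPM (1.13 to 5.14), against 45.2 in saline fibroblasts and 2.49 in Spp1-low cells.

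Some of the lowest genes against saline are markers of other cells. Sftpc, Sftpb, Sftpa1 and Scgb1a1 are made by lung epithelium and Jchain by plasma cells. Sftpc was at 10.1 against 785 UPM and Scgb1a1 at 21.2 against 858. The 7 epithelial markers summed to 33.3 UPM in Spp1-high and 35.4 in Spp1-low cells, and to 1699 in saline fibroblasts, which had no Epcam UMI by the rule. The part of free RNA of the saline library in these genes was not tested.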

How the data were processed

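Droplet single-cell RNA libraries (10x 3' chemistry) of sorted tdTomato-positive lung cells were deposited as raw UMI count matrices, 1 for saline and 1 for bleomycin. Per the submitters' processing notes, the authors made these counts with Cell Ranger 2.1.1 and the mm10 genome. The annotation release is not given in the sources used here. The counts were used as deposited, and no sample's values were pooled or normalized by the authors in these files.

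UMIs were summed over the cells of each class and divided by the class total (UPM), with a prior of 1 UPM in log2 ratios. No significance test was made, since each group is a single library. Intervals are exact 95% Poisson, conditional binomial (ratios) or Clopper-Pearson (shares) intervals, and cover counting error only. Shares of cells with a Spp1 UMI were compared after thinning each cell to 5000 UMIs, which left out 1 Spp1-high cell. The shares printed for other genes are of all cells of a class, without thinning. Genes named in the text were the 20 genes furthest up and the 20 furthest down against Spp1-low cells among those called, the 10 highest and 10 lowest against saline fibroblasts, up to 4 from each of 46 gene lists (677 genes), the 10 at each end of a component, and a set of marker genes. Selection, haemoglobin, sex-linked, mitochondrial, immunoglobulin, ribosomal protein and predicted genes were left out of the ranked genes. Other genes named to complete a list's count were chosen after their values were seen. The members and the lists were chosen with earlier results of these data known. The list symbols Ecrg4, Leprel2, Lepre1, Leprel4 and C1s are not among the names in the files.

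Doublets were scored with Scrublet in scanpy 1.11.5. Of the 160 highest-scoring bleomycin barcodes, 4 were Spp1-high and 22 Spp1-low cells, and they were kept. The code that applies the size rule was tested on simulated data with known fold changes. Alternatives covered the denominator, cell weighting, thinning, thresholds of Spp1 and Cthrc1, doublets, macrophage UMIs, quality filters, the prior, the level minimum and the fold. Python 3.11.15, numpy 2.4.6, scipy 1.17.1 and pandas 2.3.3 were used. A gene that the naming rule selects is not reported here.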

Additional observations from a re-analysis of the deposited data

How the results depend on the processing

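Thinning each cell to 5000 UMIs gave 98 higher and 331 lower genes against Spp1-low cells, and 201 higher against saline fibroblasts. The cause was not tested. Against all other Cthrc1 fibroblasts, 258 were higher and 302 lower. A minimum of 20 UMIs with no UPM minimum gave 399 and 794, and 598 and 1781 against saline. A 2-fold rule gave 49 and 73, and a 1.5-fold rule against saline 818 and 1325. Thbs4 had a log2 ratio of -0.36 once cells with Pi16, Dpp4, Ly6c1 or Clec3b were left out, an alternative chosen after seeing the data; the cause was not tested. Under the other alternatives run, counts stayed within 1.5 times of 171 and 189, but without the cells carrying Pi16, Dpp4, Ly6c1 or Clec3b 99 of the 171 and 109 of the 189 were still called. Of 3353 values of named genes, 537 moved by more than the tolerance and 1 reversed. Of 559 list medians, 43 moved by over 0.2. With 1 library per group, no alternative measures the spread between animals. No paired analysis was possible because each group has 1 library, so the groups share fewer than 2 replicate numbers.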

Other observations

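Spp1-high cells also occurred among bleomycin fibroblasts outside the selection rule, and the genes given here were chosen after their values were seen. Among cells with 1 Cthrc1 UMI, 94 Spp1-high cells had 2372 UPM of Serpine2, the protease nexin-1 gene, and 340 Spp1-low cells had 725. Fst, follistatin, was at 886 against 272 UPM there, and Fmod at 197 against 85.2. Penk was at 15.6 against 13.9 UPM there, with wider gaps both in cells with more Cthrc1 and in cells with none (121 against 21.9 UPM). In those 2 sets 1 cell held 54.7% and 61.4% of the Penk UMIs of the Spp1-high cells.

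Among Cthrc1 fibroblasts with cell cycle UMIs, 39 of 167 were Spp1-high (23.4%, exact interval 17.2 to 30.5). Timp1 was at 3847 against 1524 UPM in these cells, Serpine2 at 1980 against 435 and Postn at 362 against 1139. Among Msln-positive Cthrc1 fibroblasts 9 of 145 were Spp1-high (6.21%, 2.88 to 11.5), with 1479 against 290 UPM of Serpine2 and 389 against 2700 of Igfbp6. Serpine2 was thus higher, and Igfbp6 lower, beside high Spp1 in each of these sets.

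Ibsp, which encodes bone sialoprotein, had 138 UMIs in the 234 Spp1-high fibroblasts with no Cthrc1 UMI, and all of them came from 1 cell. It had no UMI in the 186 Spp1-high Cthrc1 fibroblasts. The 1 saline barcode that met the whole rule held 7597 UMIs, with 52.7 Spp1 UMIs per 10000.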
